A study of Mus musculus with 30 samples.

Results

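Srrm3, Srrm4 and Rest were followed from pluripotent stem cells to young neurons. They are 3 of the 54393 genes of the deposited expression table, chosen by name, and 93 of the 661327 deposited splicing events lie in them (54 in Srrm3, 26 in Srrm4 and 13 in Rest). Poly(A) RNA of 30 libraries was sequenced, 2 for each of 5 lines of the mouse embryonic stem cell line CGR8 at 3 stages: undifferentiated cells (ESC), embryoid bodies at day 8 (EB8) and glutamatergic neurons after 7 days in vitro (DIV7). All lines were made into neurons with 6 µM retinoic acid during embryoid body formation. The lines were the parental wild type (WT), Puf60.mEx5.HOM (both alleles of the splicing factor gene Puf60 edited to lack exon 5), Puf60.pEx5.HOM and Puf60.pEx5.HET (exon 5 made constitutive on both alleles or on 1 allele) and Rbm38KO (the RNA-binding protein gene Rbm38 deleted). The edits were made with CRISPR-Cas9. The series names independent clones, but the labels do not tie a library to a clone, so p-values measure the spread between these libraries, which may be technical.

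Srrm4 (also called nSR100) and its paralog Srrm3 are serine/arginine-rich splicing factors of neural and endocrine cells, known for promoting inclusion of microexons, exons so short that they add only a few amino acids. Rest is a zinc-finger repressor that binds RE1 sites and, with the RCOR, HDAC and KDM1A corepressors, keeps neuronal genes silent outside neurons. Srrm4 is itself known as a gene that REST represses, and SRRM4 is known to promote a short neural exon in Rest transcripts that yields a truncated protein.

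Several exons on which the results below turn are shown first, read from GENCODE M21 transcripts (mouse build mm10/GRCm38), 5′ to 3′ on the gene's strand, with the exon in capitals and 30 bases of the neighbouring exons on each side in lower case. Srrm4 holds a 27-nt exon of microexon size (chr5:116472507-116472533, minus strand). Kdm1a and Phf21a are 2 corepressor genes with a microexon (chr4:136563438-136563449, minus strand, and chr2:92351609-92351631, plus strand). L1cam (chrX:73855652-73855663, minus strand), Agap1 (chr1:89610284-89610295, plus strand) and Clasp2 (chr9:113860120-113860137, plus strand) show an early, a transient and a late microexon.
Srrm4 27-nt exon: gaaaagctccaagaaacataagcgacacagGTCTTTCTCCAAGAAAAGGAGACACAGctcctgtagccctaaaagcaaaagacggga
Kdm1a 12-nt exon: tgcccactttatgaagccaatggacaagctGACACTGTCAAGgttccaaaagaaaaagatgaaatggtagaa
Phf21a 23-nt exon: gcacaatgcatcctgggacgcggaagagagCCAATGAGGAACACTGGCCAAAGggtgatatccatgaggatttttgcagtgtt
L1cam 12-nt exon: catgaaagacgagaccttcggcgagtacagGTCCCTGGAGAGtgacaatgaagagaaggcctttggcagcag
Agap1 12-nt exon: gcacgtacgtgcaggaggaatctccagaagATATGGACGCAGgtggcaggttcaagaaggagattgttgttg
Clasp2 18-nt exon: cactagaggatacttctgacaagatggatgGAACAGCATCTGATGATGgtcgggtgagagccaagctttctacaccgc

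Srrm3 also holds a 20-nt exon (chr5:135867127-135867146, plus strand) whose inclusion is described below. It is shown with the 100 bases before it, which are intron in other transcripts and were read from the transcript Srrm3-206.
Srrm3 20-nt exon: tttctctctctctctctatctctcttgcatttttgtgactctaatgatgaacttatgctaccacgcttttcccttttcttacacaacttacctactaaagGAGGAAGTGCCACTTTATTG

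Spliced-read totals lay between 23204150 and 38571969 per library (median 28299602). Rbm38 had 0 reads in all 6 Rbm38KO libraries, against 127 to 2820 in the other 24. The share of Puf60 transcripts that included the 51-nt exon 5 was 93.2 to 99% in Puf60.pEx5.HOM, 49.2 to 64.9% in Puf60.pEx5.HET and 20.7 to 44% in WT. It was 7.49 to 13% in Puf60.mEx5.HOM, which is not 0. Levels below are in CPM (spliced reads scaled to a common library size). Puf60 RNA itself was lower in Puf60.mEx5.HOM than in WT at each stage. Its means were 218 against 336 CPM in ESC, 241 against 327 in EB8 and 173 against 253 in DIV7. Summed over 12 neuron markers, levels were 271 to 401 CPM in ESC, 1163 to 2844 in EB8 and 4786 to 5731 in DIV7. The 8 pluripotency markers summed to 3980 to 5852 CPM in ESC and to 45.5 to 248 in DIV7, where 8 astrocyte markers reached 473 to 1261 and 6 fibroblast and muscle markers 277 to 4241 CPM. Oligodendrocyte markers stayed at 32.1 CPM or lower, and 6 endocrine markers summed to 391 to 573 CPM at DIV7. Of these, Ins1, Ins2 and Gcg were at 0 in ESC and had group means of 0.219 CPM or less at the later stages. The endocrine sum thus rests on Sst, Chga and Neurod1. These are RNAs of whole cultures: fewer cells of a type and less RNA per cell cannot be told apart.

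Rest, the repressor, lies at chr5:77265491-77286432 on the plus strand (ENSMUSG00000029249.15). In WT it fell at each step of differentiation. Its level, from reads that joined exons across 3 introns, was 51.6 and 39.6 CPM in the WT ESC libraries, 4.58 and 5.8 in EB8 and 1.18 and 1.58 in DIV7. Over all 5 lines it ran from 36.8 to 78.7 CPM in ESC (median 51.6, 10 libraries), from 3.65 to 6.44 in EB8 (median 4.48) and from 1.18 to 2.62 in DIV7 (median 1.79). No library of a stage reached the range of another. In WT the mean was 8.78-fold higher in ESC than in EB8 and 3.76-fold higher in EB8 than in DIV7, where 33 to 69 reads per library remained. On the log2(CPM + 1) scale, which understates changes of low values, limma gave -2.91 ± 0.23 (SE) for EB8 against ESC (adjusted p = 1.14e-10) and -1.38 ± 0.23 for DIV7 against EB8 (adjusted p = 1.28e-05). Of the 13938 genes tested, 18.2% and 12.7% were at least 2-fold lower in those steps at an adjusted p under 0.05.

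Srrm4, a neural regulator of microexons, lies at chr5:116439275-116591817 on the minus strand (ENSMUSG00000063919.11). It rose early and then eased. The WT libraries held 0.746 and 0.494 CPM in ESC, 37 and 40.2 in EB8 and 25.9 and 27.6 in DIV7, counted over 12 introns. Over all lines the ranges were 0.327 to 1.06 CPM in ESC (8 to 31 reads), 31.7 to 53.6 in EB8 and 25.9 to 35.5 in DIV7 (medians 0.605, 38.2 and 28.1). The EB8 and DIV7 ranges over all lines overlap, while those of the WT libraries do not. The WT mean was 62.2-fold higher in EB8 than in ESC and 1.44-fold higher in EB8 than in DIV7. In limma the rise was 4.61 ± 0.15 on the log2 scale (adjusted p = 3.52e-17), and the later fall was -0.51 (adjusted p = 0.00457), which is under 2-fold. In the same steps 21.7% of genes were at least 2-fold higher, and 34.2% were lower at an adjusted p under 0.05 whatever their size.

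Srrm3, the paralog, lies at chr5:135806890-135874772 on the plus strand (ENSMUSG00000039860.19). It rose as early as Srrm4 and had its highest levels in the neurons. The WT libraries held 0.78 and 0.777 CPM in ESC, 35.7 and 36.2 in EB8 and 52.5 and 47.9 in DIV7, counted over 14 introns. Over all lines it was 0.38 to 1.26 CPM in ESC (11 to 37 reads), 20.9 to 51 in EB8 and 45.2 to 67.9 in DIV7 (medians 0.777, 34 and 57.5). Both later stages stood far above ESC, and EB8 and DIV7 overlapped over all lines but not in WT. The WT mean was 46.2-fold higher in EB8 than in ESC and 1.4-fold higher in DIV7 than in EB8. The early rise was 4.38 ± 0.18 on the log2 scale in limma (adjusted p = 2.46e-15). The later step was 0.47 (adjusted p = 0.0272, where 37.4% of genes were higher at that threshold), and it lost its call without WT EB8 replicate A (adjusted p = 0.0868), without WT EB8 replicate B (0.0763) or without WT DIV7 replicate A (0.127). It also lost it with scaling to the library total (0.31, limma, adjusted p = 0.126) or quantile scaling (0.40, 0.068).

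**Figure D1:**
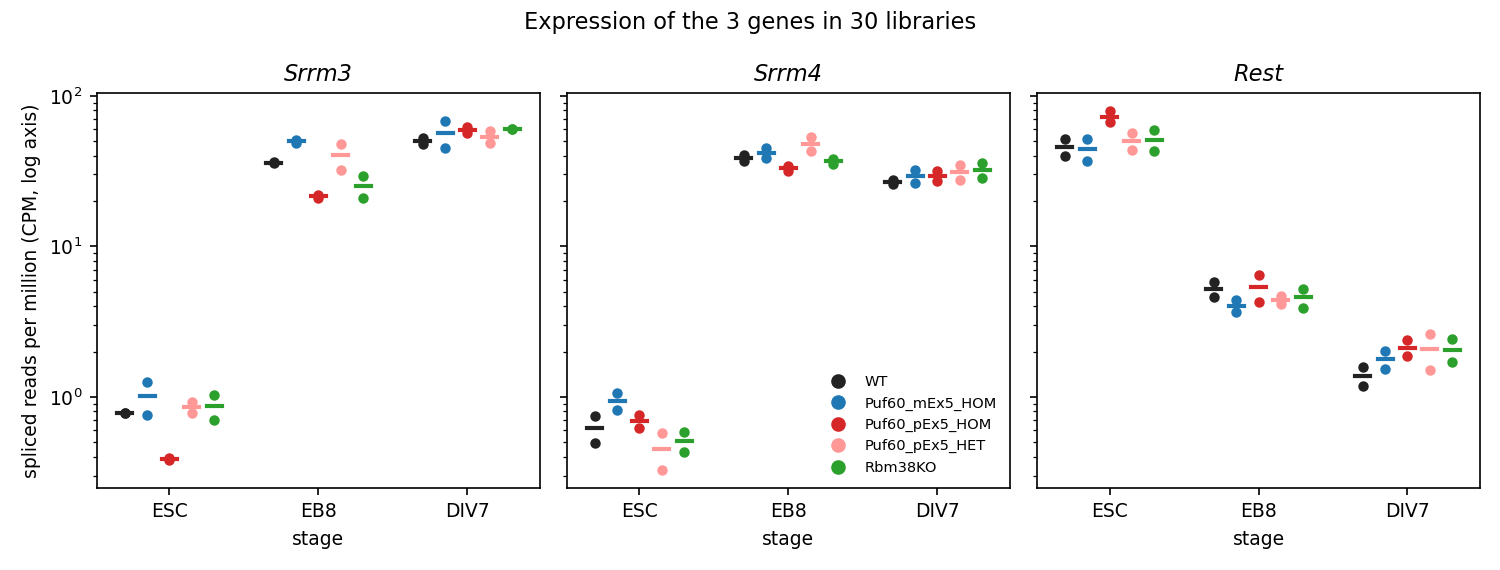
Expression of Srrm3, Srrm4 and Rest in the 30 libraries, as scaled spliced reads (CPM, log axis) by stage; points are libraries coloured by line and bars are means of 2 libraries. Rest falls from 36.8 to 78.7 CPM in ESC to 1.18 to 2.62 in DIV7, while Srrm3 and Srrm4 go from 1.26 CPM or less in ESC to 20.9 or more in EB8.

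Levels of different genes were compared per length, for which the authors' RPKM give 1 value per group with no replicates. In WT ESC, Rest stood at 52.6 RPKM, Srrm3 at 0.37 and Srrm4 at 0.23. In WT EB8 Rest had gone from highest to lowest, with Srrm3 at 17.1, Srrm4 at 10.7 and Rest at 5.41 RPKM. In WT DIV7 Srrm3 was at 30.8, Srrm4 at 7.7 and Rest at 1.91 RPKM. Thus, by RPKM, both splicing factors stood below the repressor before differentiation and above it after. By the same measure Srrm3 was the more abundant of the paralogs at EB8 and DIV7. Over the 5 lines the RPKM of Srrm3 were 11 to 23 at EB8 and 26.7 to 31.7 at DIV7, against 9.71 to 13.8 and 7.7 to 8.71 for Srrm4. The EB8 ranges over lines overlap, but within each of the 5 lines the RPKM of Srrm3 stood above that of Srrm4. They were closest in Puf60.pEx5.HOM, at 11 and 9.71 RPKM. Spliced reads, over 14 introns of Srrm3 and 12 of Srrm4, gave another order at EB8. Mean CPM were 36 for Srrm3 against 38.6 for Srrm4 in WT and 21.5 against 33 in Puf60.pEx5.HOM. They were 40.2 against 48.1 in Puf60.pEx5.HET and 25.2 against 36.6 in Rbm38KO. In Puf60.mEx5.HOM Srrm3 was higher (49.8 against 41.7). Which paralog is higher at EB8 thus depends on how they are counted.

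Across the 15 group means of log2(CPM + 1), Srrm3 and Srrm4 correlated at Pearson r = 0.972, Rest and Srrm3 at -0.989 and Rest and Srrm4 at -0.948. These are descriptions over 15 points that share stages and libraries. The genes whose pattern was most like that of Srrm3 were Add2, a membrane-skeleton protein, Brsk2, a neuronal polarity kinase, and Elavl4, a neuronal RNA-binding protein (r = 0.999 each), then Arhgap33 and Atrnl1 (0.998). The nearest to Srrm4 were Dpysl4, Hoxb6, Kif21a, Frmd4a and Cers6 (0.998 each). The nearest to Rest were Usp28, Kat2b and Foxn2 (0.998), then Eif3l and Usp7 (0.997). Elavl4 ran from 0.994 to 83.8 CPM over the groups, and Usp7, a deubiquitinase known to stabilise REST, from 152 to 640 CPM.

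Each edited line was then compared with WT at each stage, 12 comparisons per gene, with the 4 comparisons of a stage sharing the same WT libraries. Srrm4 passed in none of its 12: the differences ran from -0.22 to 0.30 on the log2 scale, with limma's adjusted p from 0.396 to 1. Rest passed in 1 and Srrm3 in 1, neither reaching 2-fold, and both in Puf60.pEx5.HOM. At DIV7 no comparison passed for any of the 3 genes, the differences from WT being 0.09 to 0.26 for Srrm3, 0.12 to 0.24 for Srrm4 and 0.22 to 0.39 for Rest. Few genes differed at all in some of these comparisons. The share of all genes past the adjusted p in either direction was, in ESC, EB8 and DIV7, 0.294, 18.2 and 1.38% for Puf60.mEx5.HOM and 17.6, 10.2 and 15.8% for Puf60.pEx5.HOM. It was 0.0717, 0.323 and 1.21% for Puf60.pEx5.HET and 0.115, 0.108 and 0.517% for Rbm38KO.

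Rest was higher in undifferentiated Puf60.pEx5.HOM cells. It stood at 78.7 and 66.6 CPM there, against 51.6 and 39.6 in WT, with the other 3 lines between 36.8 and 59. The Puf60.pEx5.HOM libraries thus lay above all others of the stage. Replicate A was above replicate B in each of the 5 lines. The difference from WT was 0.67 ± 0.23 (limma, adjusted p = 0.0447, with 9.08% of genes higher at that threshold). The authors' deposited table gives 0.61 with a false discovery rate of 0.132, so the call is not shared by it. It was lost without WT replicate B (0.48, adjusted p = 0.342), without Puf60.pEx5.HOM replicate A (0.55, 0.255) or without its replicate B (0.79, 0.0843). It was also lost with scaling to the library total (limma, adjusted p = 0.1), quantile scaling (0.0757), a pseudocount of 0.5 (0.0658) or no filter on low genes (0.0745). In the same libraries the pluripotency markers summed to 5753 to 5852 CPM against 4449 to 4644 in WT, and 6 neural progenitor markers to 315 to 394 against 547 to 656. The 6 fibroblast and muscle markers summed to 38.4 to 66.5 CPM against 290 to 425 in WT, with 5 of the 6 at least 2-fold lower (median -2.43). Their part in the difference was not tested.

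Srrm3 was lower in the embryoid bodies of Puf60.pEx5.HOM. It stood at 22 and 21 CPM (21.5 ± 0.689, SD, n = 2), against 35.7 and 36.2 in WT (36 ± 0.304, SD, n = 2), and the groups did not overlap. The difference was -0.72 ± 0.18 (limma, adjusted p = 0.0135, with 7.57% of genes lower at that threshold). Leaving out any single library of the 4 kept it between -0.75 and -0.69 but raised the adjusted p to 0.053 to 0.101. The authors' deposited table gives -0.71 with a false discovery rate of 0.00268. Srrm3 in Puf60.mEx5.HOM embryoid bodies lay on the other side of WT, at 48.6 and 51 CPM, a difference of 0.46 that did not pass (adjusted p = 0.0891). Rbm38KO was at 29.4 and 20.9 CPM (-0.52, adjusted p = 0.498), and Puf60.pEx5.HET at 48.1 and 32.2 (0.13), a spread that takes in both WT libraries.

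Set directly against each other, the lines without and with constitutive exon 5 differed most. Srrm3 in EB8 was higher in Puf60.mEx5.HOM than in Puf60.pEx5.HOM by 1.18 ± 0.18 on the log2 scale (limma, adjusted p = 2.43e-05), over 2-fold, where 6.95% of genes were called higher and 3.05% lower. At any size 43.7% of genes differed there, 19.5% in ESC and 19% in DIV7, where none of the 3 genes passed. It stayed between 1.05 and 1.21 under every alternative run, including each left-out library. Srrm4 differed by 0.32 (adjusted p = 0.087) and Rest by -0.33 (0.254) in the same embryoid bodies. In ESC, Srrm3 differed by 0.52 (adjusted p = 0.0492) from 11 to 37 reads per library, and Rest by -0.72 (0.0283), at a threshold that 9.38% of genes passed upwards and 10.1% downwards. The Srrm3 value lost its call without Puf60.mEx5.HOM replicate A (0.34, 0.335) or without Puf60.pEx5.HOM replicate A or B (0.171 and 0.151). It also lost it with quantile scaling (0.41, limma, adjusted p = 0.178), a pseudocount of 5 (0.16, 0.569), no filter on low genes (0.0794) or voom weights (1.29, 0.267). The Rest value lost it without Puf60.mEx5.HOM replicate B (-0.48, 0.318) or without Puf60.pEx5.HOM replicate A or B (0.195 and 0.0571), and with scaling to the library total (limma, adjusted p = 0.0955) or quantile scaling (0.0578). At those ESC levels the authors' deposited table gives -1.16 for Srrm3 in Puf60.pEx5.HOM against WT (false discovery rate 0.00275), where limma gave -0.36 (adjusted p = 0.2) and the authors' RPKM are 0.37 in both groups.

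**Figure D2:**
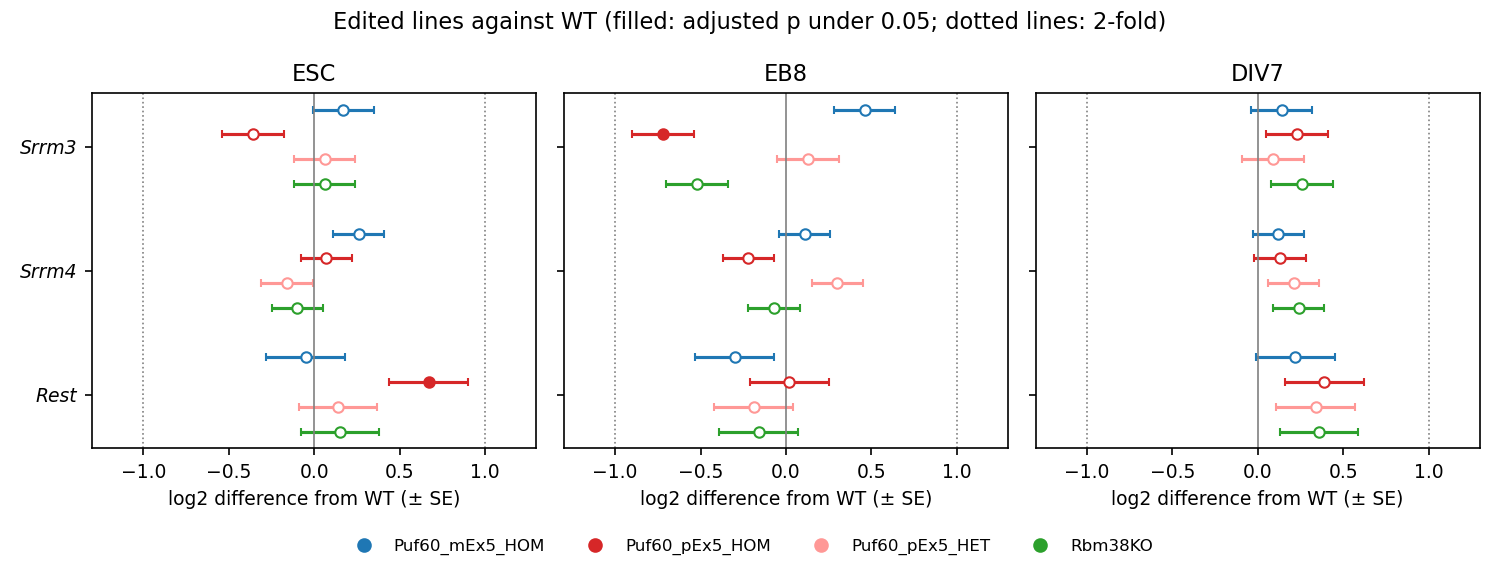
Log2 differences from WT on the log2(CPM + 1) scale (points, with bars of 1 SE) for the 4 edited lines, by gene and stage; filled points have an adjusted p under 0.05 and dotted lines mark 2-fold. Only Rest in ESC (0.67) and Srrm3 in EB8 (-0.72), both in Puf60.pEx5.HOM, are filled.

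The step from EB8 to DIV7 also differed for Srrm3. Its log2 change was 0.47 in WT, 0.15 in Puf60.mEx5.HOM, 0.43 in Puf60.pEx5.HET, 1.24 in Rbm38KO and 1.42 in Puf60.pEx5.HOM. Puf60.pEx5.HOM started lower and ended at 61.7 and 56.4 CPM, above the WT libraries. The authors' RPKM put it at 11 in EB8 and 27.4 in DIV7, below WT (17.1 and 30.8) at both stages. Their deposited log2 fold change at DIV7 is 0.17 (false discovery rate 0.807), and limma gave 0.23 (adjusted p = 0.439). Neither passed, so no order against WT at DIV7 was established. The difference between its step and that of WT was 0.95 ± 0.26 (limma, adjusted p = 0.0240, where 7.65% of genes had a higher step). It was 0.88 to 1.01 with 1 of the 8 libraries left out, and 6 of those 8 fits took the adjusted p past 0.05, to 0.0508 to 0.0745. Astrocyte markers in DIV7 summed to 473 to 776 CPM in Puf60.pEx5.HOM and 1205 to 1261 in WT, and pluripotency markers to 170 to 248 and 65.9 to 67.8. Fibroblast and muscle markers summed to 277 to 449 CPM and 617 to 2035. Their part was not tested. The other 7 step differences of Srrm3 (-0.58 to 0.78, adjusted p 0.28 to 0.986), the 8 of Srrm4 (-0.28 to 0.46, 0.326 to 1) and the 8 of Rest (-0.64 to 0.54, 0.221 to 1) did not pass. The share of all genes with a different step, from ESC to EB8 and from EB8 to DIV7, was 4.68 and 2.03% in Puf60.mEx5.HOM, 11.9 and 10.9% in Puf60.pEx5.HOM, 0.0143 and 0.043% in Puf60.pEx5.HET and 0.00717 and 0.043% in Rbm38KO.

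Within the 3 genes, 84 of the 93 events had at least 10 reads in both libraries of 2 or more groups, and 4 of the 84 varied by at least 10 points of PSI (percent spliced in, the share of transcripts that include a sequence) between group means. Of those 4, 3 lie in Srrm3 and 1 in Rest.

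The Rest event is a 16-nt exon (chr5:77279899-77279914), whose length is not a multiple of 3. In the WT libraries it was included at 0.65 and 0.38% in ESC (601 and 514 reads), 15.8 and 0% in EB8 (68 and 75 reads) and 12.2 and 28% in DIV7 (15 and 12 reads). Over all lines it was at 0 to 0.75% in ESC, 0 to 19.6% in EB8 and 12.2 to 63.9% in DIV7, or 0.249, 8.41 and 35.7% of the pooled reads of each stage. So the few Rest transcripts of the neurons carried it far more often than the many of the stem cells. In WT, DIV7 exceeded ESC by 19.6 points (limma, adjusted p = 0.000233), a call made for 21.6% of the 17966 events tested in the higher direction. The difference was 11.7 points without WT DIV7 replicate B and 27.5 without its replicate A. The test adds 1 to the included and to the excluded reads, which at low inclusion raises the log odds where reads are fewer. Reads of this exon fell at each stage, so the adjusted p-values of its stage steps partly reflect depth. EB8 minus ESC was 7.41 points (limma, adjusted p = 0.000991), short of the 10 points required. Without WT EB8 replicate B it was 15.3 points and was called, and without WT EB8 replicate A it was -0.515. DIV7 minus EB8 was 12.2 points (limma, adjusted p = 0.419), and without WT EB8 replicate A it was 20.1 points and was called. Among lines, Rbm38KO neurons had the highest values, 49.3 and 63.9%, but the difference of 36.5 points from WT did not pass (limma, adjusted p = 0.999), and no other line did. Of all events, the share called in either direction against WT in EB8 and DIV7 was 0.322 and 0.0721% in Puf60.mEx5.HOM, 2.39 and 1.27% in Puf60.pEx5.HOM, 0.0127 and 0.00901% in Puf60.pEx5.HET and 0.00424 and 0% in Rbm38KO, and 3.22% between Puf60.mEx5.HOM and Puf60.pEx5.HOM in DIV7.

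Srrm3 has a 79-nt exon (chr5:135869720-135869798) that went the other way. WT libraries included it at 83.7 and 84.8% in ESC (11 and 12 reads), 13 and 12.4% in EB8 and 1.1 and 0.27% in DIV7. Over all lines it was at 50.7 to 100% in ESC from 3 to 12 reads, 6 to 26.4% in EB8 and 0 to 1.51% in DIV7, with no overlap between stages. Thus the small amount of Srrm3 RNA in stem cells mostly carried an exon that neurons skipped. In WT it fell by 71.6 points from ESC to EB8 (limma, adjusted p = 8.44e-05) and by 12 points from EB8 to DIV7 (0.000325), calls made for 5.99% and 7% of events in that direction. In EB8 it stood at 26.4 and 19.8% in Puf60.pEx5.HOM and at 7.4 and 6% in Puf60.mEx5.HOM. The lines differed from each other by -16.4 points (Puf60.mEx5.HOM minus Puf60.pEx5.HOM, limma, adjusted p = 0.000582, with 3.4% of 23570 events called lower). Against WT neither passed (10.4 points, 0.0913, and -6 points, 0.217).

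The 20-nt Srrm3 exon shown above, of a transcript annotated for nonsense-mediated decay, had inclusion of 3.37 to 14.7% in EB8 and 13.1 to 27.2% in DIV7. In ESC no read included it, from 0 to 6 reads per library, too few to show its absence. No comparison of lines passed for it. The remaining variable event is a 10957-nt Srrm3 intron (chr5:135857216-135868172), retained at 7.56 to 22.5% in EB8 and 5.98 to 17.1% in DIV7. In ESC its values, 28.6 to 100%, rest on 0 to 9 reads per library. The interval spans the 20-nt exon, so its reads need not all come from a retained intron. In Srrm4 no event varied by 10 points: its 9 measured exons, among them the 27-nt exon shown above (48 to 129 reads), were at 100% in all 20 EB8 and DIV7 libraries, and its 12 introns were retained at 0 to 7.03%.

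**Figure D3:**
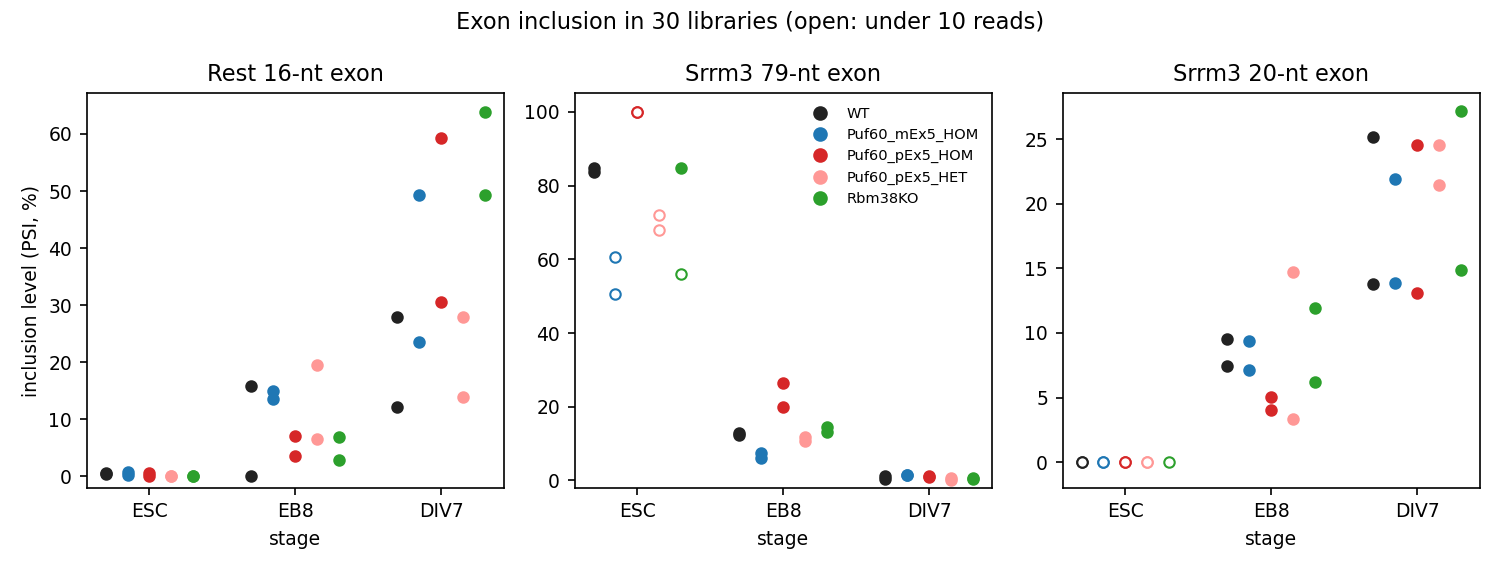
Inclusion (PSI, %) of the 16-nt exon of Rest and of the 79-nt and 20-nt exons of Srrm3 by stage; each point is a library, coloured by line, and open points rest on under 10 reads. The Rest exon reaches 12.2 to 63.9% in DIV7, while the 79-nt exon drops from 50.7% or more in ESC to 1.51% or less in DIV7.

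Start usage, with the reads of all lines pooled, was steady where it could be read from the junctions. Of the Srrm3 reads that tell its upstream from its downstream start, the upstream start took 96.3% in ESC (26 reads against 1), 95.3% in EB8 (1427 reads against 71) and 97% in DIV7 (2106 against 65). For Rest the upstream of 2 leading exons took 84.8% in ESC, 85.1% in EB8 and 85.1% in DIV7. Single libraries ran from 81.9 to 87.5% in ESC, 80.5 to 93.6% in EB8 and 66.7 to 95.5% in DIV7. The DIV7 share rests on 200 reads against 35. The pooled shares of the leading exons of Rest were thus alike across stages, while its WT mean fell 33-fold. RefSeq promoter windows of 300 bases were at hand for Srrm3 (at its minor, downstream start) and Srrm4. The 2 cores of the RE1 site, AGCACC and GGACAG, and their longer forms TTCAGCACC and GCGGACAG were not found on either strand of these windows. Of all 32851 promoter windows, 16.2%, 22.2%, 0.371% and 0.88% hold these letters, and their absence from a window says nothing of the factor.

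The other genes of the pathway were described from lists. Of 20 REST corepressor genes, 5 rose and 2 fell at least 2-fold from ESC to EB8 in WT (median 0.30, against 0.03 for all genes), where 21.7% of all genes rose and 18.2% fell. From EB8 to DIV7, 1 rose and 7 fell (median -0.67, against 0.02), where 17.6% of all genes rose and 12.7% fell. Rises included Rcor3 (1.24 ± 0.13, limma, adjusted p = 1.23e-08), a CoREST scaffold, and Phf21a (1.09 ± 0.10, 1.13e-09). The deacetylase Hdac1 fell at both steps (-1.41 and -1.48, adjusted p = 1.28e-09 and 9.95e-10). The scaffold Rcor2 fell by 3.25 in the second step (adjusted p = 8.01e-15) and Hmg20b by 2.16 (7.12e-09). Of 5 genes of REST turnover only Usp7 moved by 2-fold, with -1.41 ± 0.07 from ESC to EB8 (adjusted p = 8.3e-14).

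Of 29 listed RE1 target symbols, among which Scn2a and Scn2a1 name the same gene, 26 were tested. From ESC to EB8, 23 of the 26 rose and 1 fell (median 2.56), then 23 rose and none fell from EB8 to DIV7 (median 2.72). Rises of 21.7% and 17.6% of all genes are the background. The granin Scg3 rose by 5.56 ± 0.16 (limma, adjusted p = 5.33e-18) and the SNARE protein gene Snap25 by 5.38 (5.69e-17) in the first step. The secretogranin Scg2 (5.36, adjusted p = 3.07e-15), the glutamate receptor subunit Grin1 (4.66) and the complexin Cplx1 (4.32) rose most in the second. Vgf, a neuropeptide precursor, fell in the first (-1.76 ± 0.42, adjusted p = 0.000773).

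Of 19 splicing partners and other neural splicing regulators, 8 rose and 2 fell from ESC to EB8 (median 0.61, with 21.7% and 18.2% of all genes as background). From EB8 to DIV7, 3 rose and 1 fell (median -0.09, with 17.6% and 12.7%). Rbfox1 rose at both steps (4.53 and 2.24, limma, adjusted p = 1.26e-17 and 4.17e-12), and Elavl4 (4.31) and Nova1 (4.24) in the first. Ptbp1, the repressor of neural exons, fell at both (-1.77 and -1.83, adjusted p = 1.66e-07 and 1.46e-07). Srsf11 and Rnps1, known partners of SRRM4 at microexons, had first-step values of -0.15 (adjusted p = 0.219) and -0.50 (0.000148).

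Microexons, here cassette exons of 3 to 27 nt, are the known targets of both factors. The pathway genes, 40 known microexon genes among them, hold 126, of which 45 in 32 genes had at least 10 reads in each WT library and a mean PSI between 5 and 95%. That mean runs over the WT libraries of all 3 stages. An exon at 0% in ESC therefore enters only if it is included later, and exons at 0% throughout are left out. The counts of rises below are partly set by this filter. From ESC to EB8, 35 of the 45 rose by 10 points or more and none fell (limma, adjusted p under 0.05; median 28.6 points). From EB8 to DIV7, 36 rose and 2 fell (median 30.7). Over the 376 microexons of all genes tested, 53.7% and 58.8% rose in these steps and 3.46% and 5.59% fell, against 9.54% and 12.1% of all events that rose. The list was put together from genes already known for such exons, and its shares are given as a description.

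L1cam, a neural adhesion molecule, completed its switch early: the 12-nt exon was at 0 and 0% in the WT ESC libraries (10 and 12 reads), 97.3 and 96.7% in EB8 and 99.4 and 99.4% in DIV7. That rise of 97 points in the first step (adjusted p = 3.43e-05) was the largest of the 45. Clasp2, a microtubule plus-end protein, switched late: its 18-nt exon went from 0 and 0% through 16.8 and 23.5% to 87.7 and 93.8%, with 70.6 points in the second step (1.82e-07). Agap1, an Arf GTPase activator, had a 12-nt exon that rose to 65.2 and 73.4% in EB8 and fell again to 41.1 and 38.7% in DIV7 (-29.4 points, adjusted p = 0.000157). The other exon that fell in the second step was a 3-nt exon of Clasp2 (-14.8 points).

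Microexons of 2 corepressor genes also rose. Kdm1a, the histone demethylase of the complex, has a 12-nt exon that was at 0% in all 10 ESC libraries, 7.87 and 10.9% in WT EB8 and 54.2 and 58.1% in WT DIV7. It rose by 46.7 points in the second step (limma, adjusted p = 1.78e-07), after 9.41 points (0.000864) in the first. Phf21a, a reader of unmethylated histone H3, has a 23-nt exon that went from 4.39% through 45.2% to 73.6% in WT (means of 2), rising by 40.8 and 28.3 points (adjusted p = 9.84e-05 and 0.000957). Kdm1a transcripts themselves moved by -0.27 and -0.59, both under 2-fold.

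**Figure D4:**
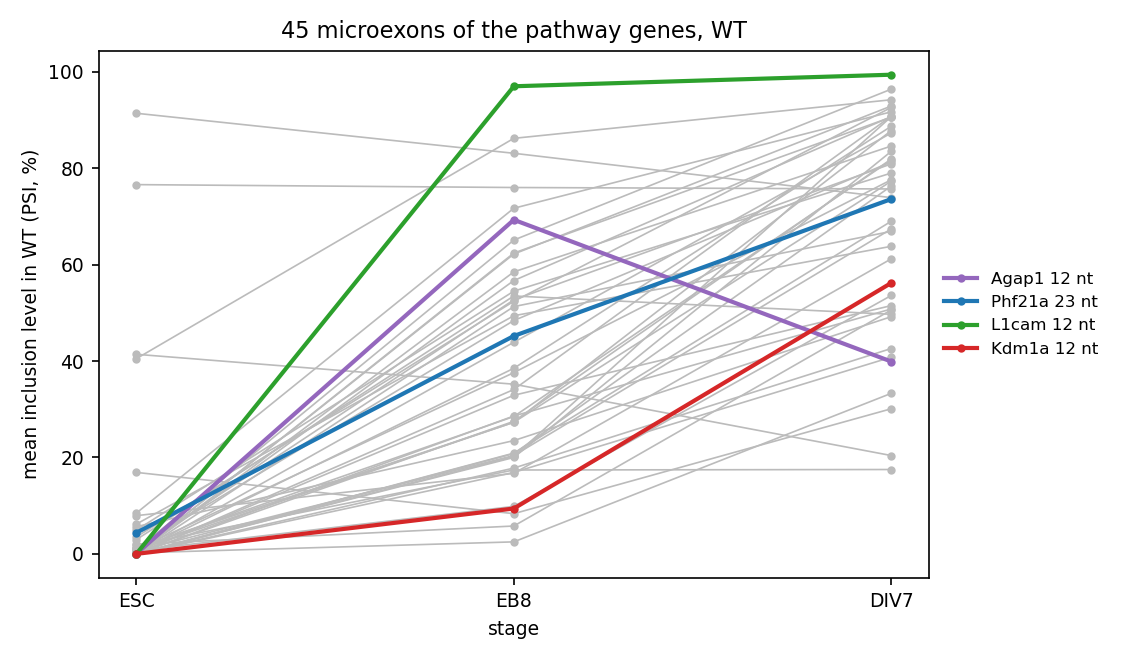
Mean inclusion (PSI, %) in the 2 WT libraries of each stage for the 45 tested microexons of the pathway genes (grey lines), with 4 coloured. The exon of L1cam reaches 97% at EB8, those of Kdm1a and Phf21a end at 56.1 and 73.6%, and that of Agap1 turns down to 39.9% at DIV7.

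In embryoid bodies, where Srrm3 differed between lines, RE1 targets and microexons differed along with it. In Puf60.mEx5.HOM 5 of 26 RE1 targets were at least 2-fold higher than in WT and none lower (median 0.77), with 1.18% and 0.466% of all genes as background. They included the calcium-binding protein gene Calb1 (1.66 ± 0.17, limma, adjusted p = 2.49e-06) and Grin1 (1.24, 0.000791). In Puf60.pEx5.HOM none was higher and 3 were lower (median -0.70, with 0.215% and 1.44% as background): the sodium channel Scn2a (-1.35, adjusted p = 8.2e-06), Cplx1 (-1.22) and the calcium pump Atp2b2 (-1.22). In Puf60.pEx5.HET and Rbm38KO none passed (medians 0.40 and -0.28), where 0.0215% and 0.00717% of genes were higher and 0.0933% and 0.0359% lower. Between Puf60.mEx5.HOM and Puf60.pEx5.HOM, 19 of 26 were higher in the former and none lower (median 1.46, with 6.95% of genes higher), as were 6 of the 19 splicing regulators, Rbfox1 by 2.43 ± 0.14 (adjusted p = 1.83e-11) among them.

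None of the 20 corepressor or 5 turnover genes differed by 2-fold at an adjusted p under 0.05 in EB8 in any of these comparisons. Smaller differences did pass limma's adjusted p between Puf60.mEx5.HOM and Puf60.pEx5.HOM, among them Rcor3 (0.67, adjusted p = 0.000255) and Btrc, a ubiquitin ligase subunit known to act on REST (0.62). Of 61 microexons of the pathway genes tested in EB8, 5 were lower in Puf60.pEx5.HOM than in WT and none higher. They lie in Vav2, a guanine nucleotide exchange factor (-19.5 points, adjusted p = 0.0336), the kinase gene Src (-16.1) and Clasp2 (3 exons, -13.6 to -19.7). In Puf60.mEx5.HOM 3 were higher, in Asap2, Eif4g1 and Ptprf (22.2, 15.9 and 13.8 points). Of the 441 microexons of all genes, 8.39% were lower and 0.907% higher in Puf60.pEx5.HOM, and 1.81% were higher and 0.68% lower in Puf60.mEx5.HOM. Set against each other, 32 of the 61 were higher in Puf60.mEx5.HOM and 2 lower (median 19.5 points). The background was 36.1% higher and 4.08% lower among all 441 microexons and 4.01% and 3.4% among all events. The Kdm1a exon was at 16.6 and 18.4% against 4.45 and 3.75% (13.4 points, adjusted p = 0.000139), and the Phf21a exon at 61.8 and 58.5% against 44.8 and 35.4% (20.1 points, 0.00993). The 2 lower exons were the 12-nt exon of Dnm2 (-28.3 points) and the 3-nt exon of Clasp2 (-20.2).

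By rising mean, Srrm3 in EB8 was ordered Puf60.pEx5.HOM (21.5 CPM), Rbm38KO (25.2), WT (36), Puf60.pEx5.HET (40.2) and Puf60.mEx5.HOM (49.8). Rbm38KO overlapped Puf60.pEx5.HOM, and WT lay within the spread of Puf60.pEx5.HET. The authors' RPKM, 1 value per group, gave the same order except that Puf60.pEx5.HET (23) stood above Puf60.mEx5.HOM (22.3). Which line is highest thus depends on how the gene is counted. The 12 neuron markers, all detected, took the same order as the Srrm3 CPM by mean, with overlaps in the lowest and the highest pair. In that order they summed to 1163 to 1326 CPM, 1257 to 1677, 1746 to 1966, 2353 to 2520 and 2441 to 2844. The lists share genes and are not separate readouts. Tubb3, Snap25, Syp and Stmn2 are also RE1 targets of the list, and Rbfox3, Elavl3 and Elavl4 are also among the splicing regulators. Median inclusion of 346 microexons was 22.6 and 26.2% in Puf60.pEx5.HOM, 24.9 and 31.4% in Rbm38KO, 31.2 and 33.9% in WT, 38.7 and 39.5% in Puf60.pEx5.HET and 42.1 and 44% in Puf60.mEx5.HOM. The neural progenitor markers spanned 1669 to 2040 CPM over all 10 libraries, and astrocyte markers 155 to 204 in the other lines and 236 to 239 in Puf60.mEx5.HOM. The sum of the 6 endocrine markers took the same order as the Srrm3 CPM with no overlap between lines. It was 37.6 to 43.1 CPM in Puf60.pEx5.HOM, 56.9 to 73.3 in Rbm38KO, 80.9 to 89.2 in WT, 92.9 to 98.9 in Puf60.pEx5.HET and 185 to 203 in Puf60.mEx5.HOM. Ins1, Ins2 and Gcg had means of 0.142 CPM or less in each of these groups. Between Puf60.mEx5.HOM and Puf60.pEx5.HOM, Sst differed by 3.78 on the log2 scale and Neurod1 by -0.01. Chga, which is also on the list of RE1 targets, differed by 1.47. The 6 fibroblast and muscle markers summed to 74.2 to 83.2 CPM in Puf60.pEx5.HOM, 146 to 284 in WT and 338 to 744 in Puf60.mEx5.HOM. The part of these markers' cells in the differences of Srrm3, the RE1 targets and the microexons was not tested.

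At DIV7 fewer members of the lists were called between lines. Of the 26 RE1 targets only Vgf passed, 2.65 ± 0.42 higher in Puf60.pEx5.HOM than in WT (limma, adjusted p = 0.00044, with 0.868% of genes higher). Of 60 microexons 3 were higher in Puf60.pEx5.HOM than in WT, among them those of Src and Cpeb4 (11.1 and 20.7 points, with 2.29% of 437 microexons higher), and 7 were lower in Puf60.mEx5.HOM than in Puf60.pEx5.HOM (4.58% of 437). In ESC only Grin1 passed among the RE1 targets, 1.64 ± 0.22 higher in Puf60.pEx5.HOM than in WT (limma, adjusted p = 3.79e-05, with 0.969% of genes higher). The median inclusion of the 346 microexons was 67.6 to 76.7% over all DIV7 libraries, and 1.75 to 4.07% over all ESC libraries. The same 346 were used in every library. Which exons enter such a set can partly set its medians, so the contrast of stages is a description.

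**Figure D5:**
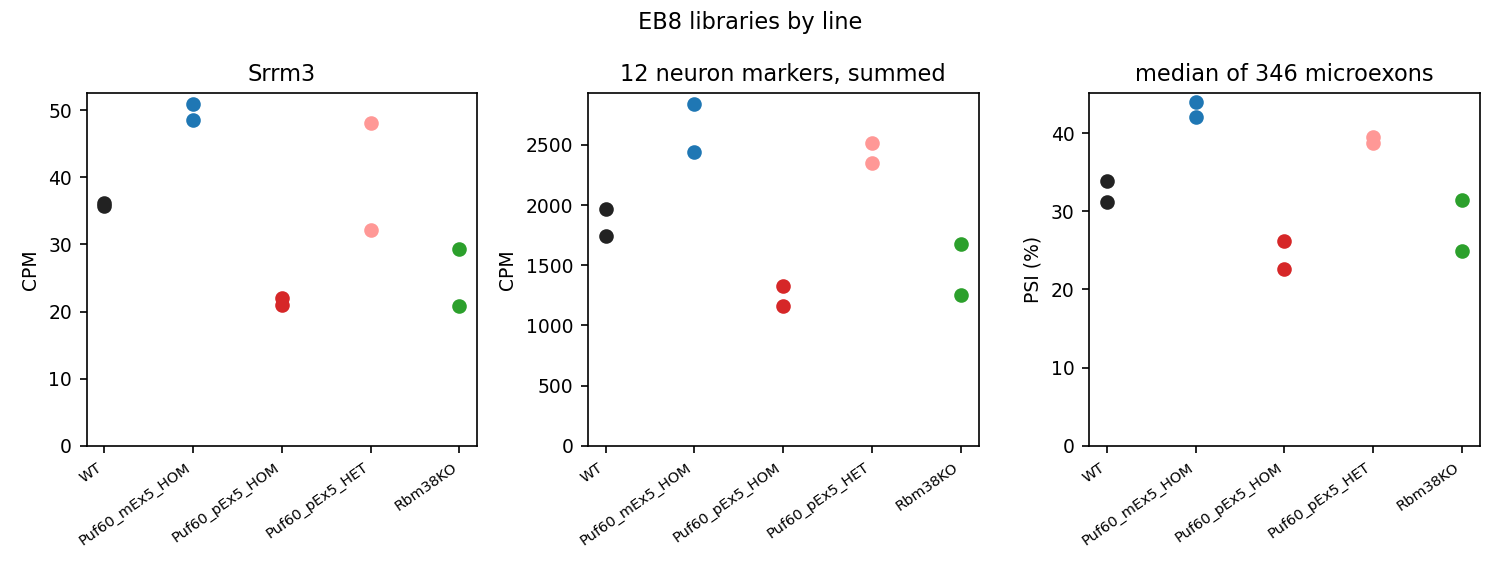
The 10 EB8 libraries by line: Srrm3 (CPM), the sum of 12 neuron markers (CPM) and the median inclusion of 346 microexons (PSI, %); each point is a library and axes start at 0. Puf60.pEx5.HOM is lowest and Puf60.mEx5.HOM highest by mean in all 3 panels.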

How the data were processed

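The authors deposited an expression table with RPKM, 1 value per gene and group, and with their own log2 fold changes, p-values and false discovery rates (q-values) against WT, and a vast-tools table with PSI in percent and quality strings holding read counts for each event and library. Another deposited splicing table was not used. Per the submitters' processing notes, Salmon 0.14.1, edgeR and build mm10 were used; which step each served is not stated, and the aligner is not given in the sources used here. Libraries were strand-specific per the labels' protocols.

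Expression per library was computed as the reads across exon-exon junctions in the retained-intron events of a gene, summed, scaled by median-of-ratios factors to CPM and tested as log2(CPM + 1) with limma 3.58.1 (R 4.3.3; trend, robust) over 15 groups and 30 libraries (15 residual degrees of freedom). Genes with at least 1 CPM in 2 libraries were kept (13938) and p-values adjusted over all of them (Benjamini-Hochberg). A call is an adjusted p under 0.05, and 2-fold where stated. This count sees only spliced reads and rests on few introns in Rest. Splicing was tested with read-weighted limma on log2((included + 1)/(excluded + 1)), where each library of the fit had 10 reads or more at the event; a call is an adjusted p under 0.05 and 10 points. Scripts were tested on simulated data.

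The 3 genes and the lists were chosen with earlier results of these data known. Genes named from a list are up to 3 called in each direction with the largest change (some are not reported here); microexons named are those of the corepressors and those with the largest steps in WT, others named by their called comparison. Srsf11, Rnps1, and the Elavl4 and Usp7 levels were chosen after their values were seen. Alternatives were other scaling, pseudocounts, filters, weights, a replicate block and each library left out.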

Additional observations from a re-analysis of the deposited data

Results flagged for a closer look

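The step of Srrm3 from EB8 to DIV7 differed between Puf60.pEx5.HOM and WT by 0.95 on the log2 scale in an interaction term (limma, adjusted p = 0.0240). Both replicates of Puf60.pEx5.HOM were below both WT libraries in EB8 and above both in DIV7, where the difference of 0.23 did not pass (limma, adjusted p = 0.439). What lies behind the step difference was not tested.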

How the results depend on the processing

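For 78 expression results, 918 alternative values stayed on the same side of the threshold, most of them uncalled on both, 34 lost the call and 2 gained it. For 31 splicing results 204 stayed and 2 gained it. None reversed a called direction, while 43 uncalled expression and 25 uncalled splicing values changed sign. Scaling to the library total moved the median of all genes to 0.421 for EB8 minus ESC, and quantile scaling to -0.0685, against 0.0263. The stage steps of the 3 genes in WT kept direction under all alternatives. For Srrm3, DIV7 minus EB8 in WT was 0.31 with the library total and 0.40 with quantile scaling, and 0.40 to 0.53 with a library left out. Rest in ESC, Puf60.pEx5.HOM minus WT, was 0.56 with the library total, 0.54 with quantile scaling, 0.67 with a pseudocount of 0.5, 0.67 with no filter, and 0.48 to 0.86 with a library left out. Srrm3 in EB8 in that line was -0.75 to -0.69 with a library left out, and its step difference 0.88 to 1.01. For Puf60.mEx5.HOM minus Puf60.pEx5.HOM, Srrm3 in ESC was 0.41 with quantile scaling, 0.16 with a pseudocount of 5, 0.52 with no filter, 1.29 with voom weights and 0.34 to 0.71 with a library left out; Rest in ESC was -0.55 with the library total, -0.57 with quantile scaling and -0.96 to -0.48 with a library left out; Srrm4 in EB8 passed at 0.29 with a pseudocount of 5 and at 0.33 with voom weights. The Rest 16-nt exon in WT ranged over -0.515 to 15.3 points for EB8 minus ESC and over 4.26 to 20.1 points for DIV7 minus EB8 with a library left out. Microexons called lower numbered 1 for DIV7 minus EB8 in an unweighted fit, and 1 to 2 for DIV7 minus ESC with a library left out. The cause was not tested. Events without 20 reads in each library gave no value under that minimum. Replicates share only a letter: same-letter deviations correlated at 0.321 to 0.529 over 10 pairs of lines in ESC, -0.258 to 0.624 in EB8 and -0.21 to 0.603 in DIV7. With the letter as a replicate block, none of 109 results changed its call (Rest in ESC, Puf60.pEx5.HOM minus WT, limma, adjusted p = 0.0475), and microexons called higher for DIV7 minus EB8 numbered 34 against 36. Depth limits the ESC values of Srrm3 and Srrm4 and the Rest exon in DIV7.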
